A study of Homo sapiens with 14 samples.

Results

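Genes of the chromosome 9p21 region that K562 cells are known to lack were followed across 14 RNA-seq libraries. They are CDKN2A, CDKN2B, MTAP and CDKN2B-AS1, chosen by name for their position and matched by symbol. They are 4 of the 24729 genes in the deposited count table, and all 4 are also in the deposited RPKM table of 25268 genes. K562 is an established line from a chronic myeloid leukemia, and its cells resemble erythroid precursors. A locus that is missing from the genome makes no transcript of its own. The labels give a single cell line, K562, for every library.

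CDKN2A encodes 2 unrelated proteins from overlapping frames. INK4A binds the cyclin D kinases CDK4 and CDK6 and holds cells in G1, and ARF binds MDM2 and so stabilises p53. CDKN2B encodes INK4B, a close relative of INK4A with the same kinase targets. MTAP encodes methylthioadenosine phosphorylase, which recycles the byproduct of polyamine synthesis back to methionine. CDKN2B-AS1, also called ANRIL, is a long noncoding RNA read from the opposite strand, and it is known for binding Polycomb proteins. Loss of this locus is frequent in leukemia and other cancers, and MTAP is often lost with the other genes.

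The study used cells in which a catalytically inactive Cas9 (dCas9) was directed to elements of the β-globin cluster, beside control cells. In 4 groups of 3 libraries the K562 cells stably expressed Flag-bio-tagged dCas9 with the biotin ligase BirA, written FB-dCas9-BirA in the labels, and sgRNAs. The sgRNAs were sgHS2 (the HS2 enhancer), sgHBG (the fetal globin promoters), sgHS1-5 (several hypersensitive sites of the locus control region) or the non-targeting sgGal4. The remaining group, WT, was K562 cells with no dCas9, BirA or sgRNA in their labels (n = 2). All groups share the same culture medium and none has a time or dose. The cells of a group form 1 population, so what its sgRNAs did and what else set that population apart cannot be told apart. Whether the replicates came from separate cultures is not given, and the p values then measure only the spread between libraries, which may be technical.

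The libraries held 5694448 to 11335831 counted reads, with the 3 sgHS1-5 libraries the shallowest (5694448, 6773888 and 6722849). Some libraries stood apart from the others of their group. sgHS1-5 2 and, less so, sgHS1-5 3 held many transcripts that were nearly absent elsewhere, as described further on. sgGal4 1 had a TMM scaling factor of 0.743, against 0.955 to 1.10 in the other 13 libraries, and sgHS2 2 had 0.955 beside 1.01 and 1.02 in sgHS2 1 and 3. The markers of K562 and erythroid cells were present in all groups: 15 of 15 genes had reads in each, and their summed level was 2790, 2200 and 2670 CPM in sgHS1-5 1, 2 and 3 and 1990 to 3160 CPM in the other 11 libraries. TFRC alone made up 1070 CPM of the sum in sgHS1-5 2. Of the 3 sgHS1-5 libraries, all these genes but EPOR were lowest in sgHS1-5 2. There GATA1 (132 CPM) and HBE1 (187) lay below the other 11 libraries (148 to 260 and 239 to 825). HBZ (99.1) and, barely, HBA1 (3.14) lay above them (5.71 to 13.4 and 0.5 to 3.12), and the rest inside. CPM are reads relative to library size, scaled here by TMM.

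The 2 kinase inhibitors are so alike in sequence that short reads from one can be assigned to the other. In the GENCODE v29 transcripts CDKN2A-201 and CDKN2B-201 (build GRCh38), the coding sequences of 468 and 414 bases share an exact run of 80 bases. Of all stretches of 50 bases in CDKN2A-201, 31 of 1169 (2.65%) also occur in a CDKN2B transcript, and of stretches of 75 bases 6 of 1144 (0.524%) do. Most of CDKN2A-201 can therefore be told from CDKN2B at these lengths, but the division of reads where they are alike is uncertain. The long noncoding RNA overlaps its neighbours too: 341 of the 4329 exonic bases of CDKN2A are exonic in CDKN2B-AS1 on the other strand. None of the 4058 exonic bases of CDKN2B (0) are. The library kit does not mark strand and the counting rule is not given in the sources used here, so reads in the overlap cannot be told apart.

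MTAP, the methionine salvage enzyme, had the most reads of the 4 genes. It had 6, 129 and 25 reads in sgHS1-5 1, 2 and 3, or 0.971, 17.6 and 3.38 CPM. In the other 11 libraries it had 7 reads in all, spread over 5 libraries: 1, 2 and 1 in sgHBG 1, 2 and 3, and 2, 0 and 1 in sgHS2 1, 2 and 3. The sgGal4 and WT libraries had 0 reads. All 3 sgHS1-5 libraries were above every other library, the highest of which reached 0.178 CPM, but within the group the levels spanned a wide range (7.31 ± 8.98 CPM, SD, n = 3). These are bulk samples, in which fewer cells with a transcript and less RNA per cell cannot be told apart.

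CDKN2A, which encodes INK4A and ARF, had 1, 41 and 11 reads in sgHS1-5 1, 2 and 3 (0.162, 5.59 and 1.49 CPM, mean 2.41 ± 2.83, SD). It had 0 reads in each of the other 11 libraries. A count of 0 allows a level of up to 0.261 to 0.425 CPM in a single one of those libraries, taking 3 reads as the limit, so the single read in sgHS1-5 1 is not a difference from them that this depth can show.

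CDKN2B, the INK4B gene, had 0, 31 and 16 reads in sgHS1-5 1, 2 and 3 (0, 4.23 and 2.16 CPM, mean 2.13 ± 2.11, SD). It too had 0 reads in the other 11 libraries. Here sgHS1-5 1 was level with the other groups, and only sgHS1-5 2 and 3 of the 14 libraries had reads.

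CDKN2B-AS1 differed from the other 3 genes in having reads in all 14 libraries, although the locus is described as missing. Its annotated span in GENCODE v29 runs on past CDKN2B, on the side of DMRTA1. It had 5, 13 and 3 reads in sgHS1-5 1, 2 and 3, and 57 reads in the other 11 libraries. Those were 6 and 6 in WT 1 and 2, 1, 5 and 3 in sgGal4 1 to 3, 8, 7 and 5 in sgHBG 1 to 3, and 6, 3 and 7 in sgHS2 1 to 3. Its mean level was 0.995 ± 0.702 CPM in sgHS1-5 (SD, n = 3), 0.620 ± 0.182 in sgHBG, 0.562 ± 0.0217 in WT (n = 2), 0.497 ± 0.163 in sgHS2 and 0.300 ± 0.172 in sgGal4. The sgHS1-5 group overlapped each of the others: sgHS1-5 3 (0.405 CPM) lay below 8 of the other 11 libraries, whose median was 0.524 CPM. Apart from sgHS1-5, sgGal4 (0.142 to 0.484 CPM, 9 reads) lay wholly below WT (0.546 to 0.577 CPM, 12 reads). Unmodified K562 cells thus carried reads assigned to this RNA, and the counts do not say which of its exons they came from.

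**Figure D1:**
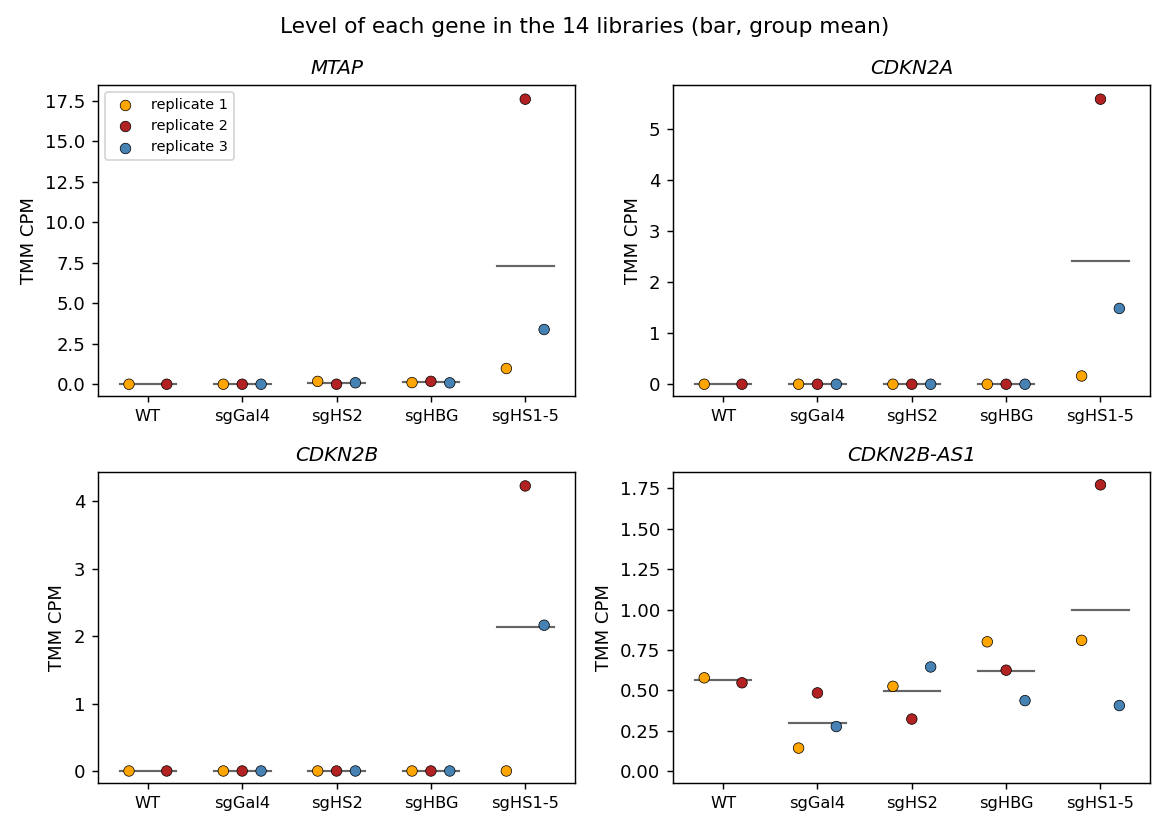
Level of each gene in TMM-scaled CPM (vertical axes, 1 scale per panel) in the 14 libraries by group (horizontal axis). Points are libraries coloured by replicate number and bars are group means. For MTAP, CDKN2A and CDKN2B the points of sgHS1-5 2 (17.6, 5.59 and 4.23 CPM) and sgHS1-5 3 stand above all others, while for CDKN2B-AS1 the sgHS1-5 group overlaps each other group.

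The 4 genes can be set against each other only per length, in the RPKM (reads scaled to transcript length and library depth) that the authors deposited. In sgHS1-5 2, CDKN2A was at 6.91 RPKM, MTAP at 3.52, CDKN2B at 1.43 and CDKN2B-AS1 at 0.773. In sgHS1-5 3 the order was the same, at 1.36, 0.694, 0.551 and 0.357 RPKM. In sgHS1-5 1 the noncoding RNA was highest (0.606 RPKM), followed by CDKN2A (0.210), MTAP (0.152) and CDKN2B (0.0497). Elsewhere CDKN2A and CDKN2B were listed at 0 in all 11 libraries, MTAP at 0 to 0.0356 and CDKN2B-AS1 at 0.0554 to 0.494 RPKM. The deposited tables do not match at this level: MTAP had an RPKM above 0 in 10 of the 11 libraries but reads in 5, and CDKN2B had an RPKM but no read in sgHS1-5 1. Among the reads of the 4 genes together, the MTAP share was 60.3% of 214 in sgHS1-5 2 (exact 95% interval 53.4 to 66.9) and 45.5% of 55 in sgHS1-5 3 (32.0 to 59.4). The CDKN2B share was 14.5% (10.1 to 19.9) and 29.1% (17.6 to 42.9). These intervals overlap between the libraries, which does not show that the shares are alike, and the difference was not tested. The intervals cover counting error only, because reads carry no molecular identifiers and can be copies of 1 molecule.

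Each other group was then compared with sgHS1-5. MTAP was called higher in sgHS1-5 in all 4 comparisons, CDKN2A in all 4, and CDKN2B in 3 of 4, by edgeR's quasi-likelihood test with an adjusted p under 0.05 over 14406 genes. These 3 genes were tested because sgHS1-5 alone lifted them over the filter on low counts, so they had to differ. CDKN2B-AS1 did not pass that filter. The counts are therefore a description: 3 of 3 tested genes were called against sgGal4, sgHS2 and sgHBG, and 2 of 3 against WT. The same holds for the adjusted p values of these 3 genes below, with all libraries or with some left out. Of all genes, 20.3%, 20.4%, 12.4% and 23.4% were called higher in sgHS1-5 against sgGal4, sgHS2, sgHBG and WT. The 4 comparisons share the sgHS1-5 libraries and are not independent.

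Against sgGal4, where MTAP had 0 reads, it was at least 72.1-fold higher in sgHS1-5 over the group, taking 3 reads as the limit for the 0 (adjusted p = 0.00221). Against WT it was at least 54.5-fold higher (adjusted p = 0.00388). It was 80.7-fold higher than in sgHS2 on 160 against 3 reads (exact 95% counting interval 27.1 to 395.0, log2 difference 6.11 ± 1.19, SE, adjusted p = 0.00304). Against sgHBG it was 62.5-fold higher on 160 against 4 reads (23.9 to 232.0, log2 5.77 ± 1.15, adjusted p = 0.00572). The groups did not overlap in any of these comparisons; 22.9%, 27.1%, 25.3% and 36.4% of all genes lay likewise wholly higher in sgHS1-5 than in sgGal4, sgHS2, sgHBG and WT. Without sgHS1-5 2 the MTAP call held, with a log2 difference of 4.40 against sgHS2 (adjusted p = 0.00275) and 4.07 against sgHBG (adjusted p = 0.00552), both smaller than with all libraries. With limma on log2(RPKM + 1), MTAP was not called in any of the 4 comparisons (log2 1.01 to 1.03, adjusted p 0.0552, 0.0599, 0.0842 and 0.0788 against sgGal4, sgHS2, sgHBG and WT). On log2(RPKM + 0.1) with no filter, limma called it in all 4 (adjusted p 0.00747, 0.00911, 0.0166 and 0.0108 in the same order).

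CDKN2A was at least 23.9-fold higher in sgHS1-5 than in sgGal4 (adjusted p = 0.0316), at least 26.7-fold higher than in sgHS2 (0.0292), at least 27.6-fold higher than in sgHBG (0.0406) and at least 18.1-fold higher than in WT (0.0456). For CDKN2B the bounds were 21.2, 23.7, 24.5 and 16, with adjusted p of 0.0384, 0.0355, 0.0489 and 0.0548 in the same order, the last of which missed the threshold. These calls rested on 2 libraries. Without sgHS1-5 2, or without sgHS1-5 3, neither gene passed the count filter and neither was tested. They also ended with the DESeq2 test (adjusted p 0.221 to 0.280 for CDKN2A and 0.234 to 0.295 for CDKN2B), which called MTAP alone.

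The call of either kinase inhibitor also ended when any 1 of several control libraries was left out. This happened without sgGal4 2 (adjusted p = 0.0547 for CDKN2A and 0.0656 for CDKN2B) or sgGal4 3 (0.0534 and 0.0638) in the comparison with sgGal4, but not without sgGal4 1 (0.0282 and 0.0347). It happened without sgHS2 1 (0.0620 and 0.0738), sgHS2 2 (0.0587 and 0.0699) or sgHS2 3 (0.0617 and 0.0733) in that with sgHS2. Against sgHBG it happened without sgHBG 1 (0.0862 and 0.101), 2 (0.0890 and 0.104) or 3 (0.0886 and 0.104). Against WT the CDKN2A call ended without WT 1 (0.139) or WT 2 (0.145). None of these libraries held a read of either gene. Without sgHS1-5 1, in contrast, CDKN2B was called against WT (adjusted p = 0.00519).

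CDKN2B-AS1 was 3.16-fold higher in sgHS1-5 than in sgGal4 on 21 against 9 reads (exact 95% counting interval 1.39 to 7.83). Its ratios to WT, sgHS2 and sgHBG were 1.79 (0.841 to 3.99), 1.98 (0.987 to 4.07) and 1.64 (0.846 to 3.19), with intervals that include equality. In an edgeR fit with no count filter its adjusted p was 0.0614 against sgGal4, 0.244 against sgHS2, 0.487 against sgHBG and 0.4 against WT. On the RPKM values, with 0.1 added before the log, limma called it against sgGal4 (log2 1.5, adjusted p = 0.0180). DESeq2 on the counts did not (adjusted p = 0.0803). Both the table and the test differ between these results, so the part of each in the call was not separated.

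Between the other groups none of the 3 tested genes was called. The count was 0 of 3 for sgHS2 against sgGal4, for sgHBG against sgGal4 and for sgGal4 against WT, with 0 at an unadjusted p under 0.05 and 0 by DESeq2. The lowest adjusted p from edgeR was 0.461, 0.398 and 1.0 in that order, where 30.1%, 24.7% and 42.4% of all genes were called in either direction. The few MTAP reads in sgHS2 (0.0889 ± 0.0874 CPM, SD, n = 3) and sgHBG (0.122 ± 0.0493) lie close to the level that a count of 0 over the sgGal4 group allows (0.106 CPM), so a difference was not detectable at this depth. MTAP lay wholly higher in sgHBG than in sgGal4, on 4 reads against 0, as did 24.7% of all genes. No gene of the 4 did so in sgHS2 against sgGal4 (20.2% of all genes) or in sgGal4 against WT (31.1%).

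The genes on either side were read next, in chromosome order. Of 61 further 9p genes listed, 58 are in the count table. FOCAD, on the telomere side, and CAAP1, on the centromere side, were the nearest genes besides CDKN2B-AS1 with reads in every library. Between them lie 24 genes besides the 4 studied, 22 of them in the count table. None of these 22 had a read in the 11 libraries outside sgHS1-5 (0 genes). Of them 19 had 0 reads in all 14 libraries, among them the interferon α genes, IFNB1, DMRTA1 and ELAVL2, and 3 had reads in sgHS1-5 libraries only. Outside this interval 29 of 36 genes had reads in at least 11 of the 14 libraries. Within the interval, MTAP and CDKN2B-AS1 were thus the genes of the count table with reads outside sgHS1-5.

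KLHL9, an adaptor of a cullin ubiquitin ligase that lies among the interferon genes, had 4, 79 and 19 reads in sgHS1-5 1, 2 and 3. It had 0 in every other library. It passed the count filter through sgHS1-5 alone and so had to differ. Its adjusted p was 0.0185 against sgGal4, 0.0170 against sgHS2, 0.0246 against sgHBG and 0.0278 against WT. TUSC1 had 0, 10 and 1 reads and MIR31HG, the host RNA of miR-31, had 0, 3 and 2 reads in sgHS1-5 1, 2 and 3, with none elsewhere. Neither passed the count filter. The genes with reads in the interval were thus highest in the same library, sgHS1-5 2, with sgHS1-5 3 next in each but CDKN2B-AS1.

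The flanking genes behaved differently from each other. FOCAD, whose product is a focal adhesion protein, had 14, 119 and 33 reads in sgHS1-5 1, 2 and 3 and 23 to 36 reads in each other library, or 2.27, 16.2 and 4.46 CPM against 2.11 to 4.40 CPM. Its level was high in sgHS1-5 2 and close to the other libraries in sgHS1-5 1. Its log2 difference was 1.32 ± 0.53 (SE) against sgGal4 (adjusted p = 0.0621), 1.41 ± 0.53 against sgHS2 (0.0496), 1.41 ± 0.52 against sgHBG (0.0671) and 1.61 ± 0.61 against WT (0.0486). CAAP1, a caspase regulator, had 10.8, 15 and 15 CPM in sgHS1-5 1, 2 and 3 and 12.5 to 16.8 CPM elsewhere, and was not called in any of the 4 comparisons (adjusted p 0.313 to 0.534). MLLT3, the gene of an elongation complex subunit, lies beyond FOCAD. It had 0 reads in both WT libraries but 6.15, 8.32 and 7.02 CPM in the sgHS1-5 libraries. It reached 19.4 ± 6.09 CPM in sgGal4, 5.20 ± 0.694 in sgHBG and 0.714 ± 0.221 in sgHS2, so it varied between groups in an order unlike that of the 4 genes. Over the 29 neighbours tested, 4 were higher and 8 lower against sgGal4, 5 and 5 against sgHS2, 2 and 2 against sgHBG, and 9 and 4 against WT. KLHL9 is counted as higher in all 4 comparisons, although it passed the count filter through sgHS1-5 alone and had to differ. Of all genes 40.4%, 38.9%, 25.2% and 42.9% were called in either direction in these comparisons.

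**Figure D2:**
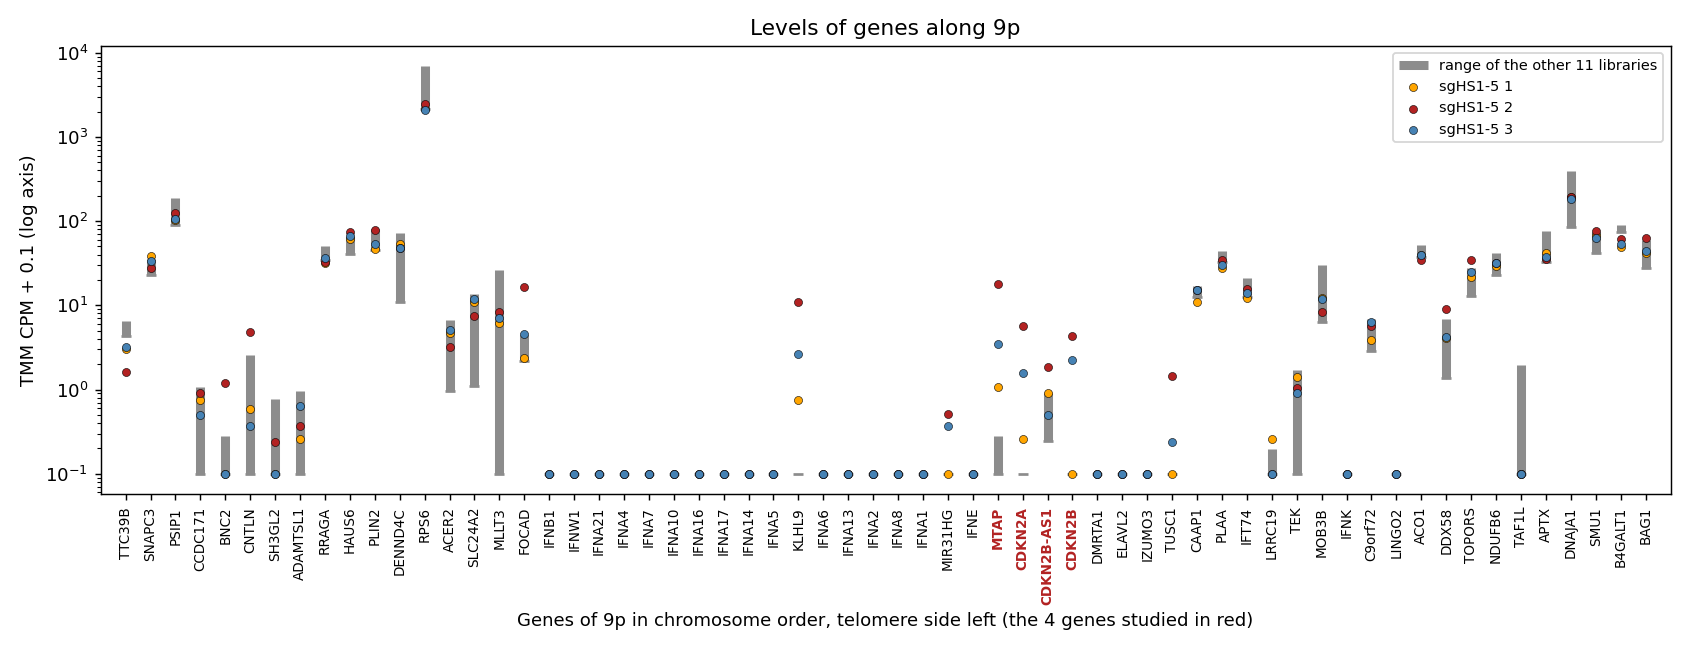
Levels of 9p genes in chromosome order (horizontal axis, no distances), as TMM-scaled CPM plus 0.1 on a log axis. Grey bars give the range of the other 11 libraries and points the sgHS1-5 libraries. Between FOCAD and CAAP1 nearly all genes sit at 0, and those with reads are highest in sgHS1-5 2, while the grey bars stay at 0 except for MTAP and CDKN2B-AS1.

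The sgHS1-5 libraries were then compared with each other, as single libraries and with counting error only. MTAP was 5.12 times as abundant per counted read in sgHS1-5 2 as in sgHS1-5 3 (exact 95% interval 3.32 to 8.21), CDKN2A 3.70 times (1.87 to 7.98), CDKN2B 1.92 times (1.02 to 3.76) and CDKN2B-AS1 4.30 times (1.18 to 23.5). KLHL9 gave 4.13 (2.48 to 7.21). Each of these ratios was above 1 beyond counting error. By the deposited RPKM the ratio of CDKN2B-AS1 was 2.17. As a yardstick, 150 transcripts, KLHL9 among them but none of the 4 genes, were taken that averaged at most 0.1 CPM in the 11 libraries outside sgHS1-5 and reached at least 5 CPM in any sgHS1-5 library. Their sum was 85.9, 2356 and 581.3 CPM (not TMM-scaled) in sgHS1-5 1, 2 and 3 and 3.63 to 6.75 CPM elsewhere, a gap that the choice itself sets. Their summed ratio between sgHS1-5 2 and 3 was 4.05 (3.91 to 4.20). The intervals of MTAP, CDKN2A and CDKN2B-AS1 include that value, and that of CDKN2B lies below it. CDKN2B itself stayed under the 5 CPM by which these transcripts were chosen, so it is set beside transcripts of a higher level. That choice also favours transcripts high in sgHS1-5 2 and so larger ratios. A lower ratio of CDKN2B is therefore not read as a departure from them.

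Single transcripts of the 150 had ratios with a median of 4.32, quartiles of 3.16 and 5.85, and 5th and 95th percentiles of 2.09 and 8.97. The CDKN2B ratio of 1.92 lies under that 5th percentile and inside the range of 1.12 to 38.7, but the deposited RPKM give it a ratio of 2.60, above that percentile. Its reads where it is alike to CDKN2A are uncertain, and their part in this ratio was not tested. Between sgHS1-5 2 and 1 the MTAP ratio was 18.1 (8.08 to 50.2), the CDKN2A ratio 34.5 (5.85 to 1390.0, on 41 against 1 read) and the KLHL9 ratio 16.6 (6.23 to 62.4; 35.8 by RPKM), beside 27.4 (25.1 to 30.1) for the summed transcripts. The CDKN2B-AS1 ratio was 2.19 (0.731 to 7.83), an interval that includes equality and lies below that of the sum. Of sgHS1-5 3 and 1, MTAP had a ratio of 3.53 (1.41 to 10.5) and CDKN2B-AS1 of 0.508 (0.0789 to 2.61), beside 6.77 (6.16 to 7.45) for the sum.

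**Figure D3:**
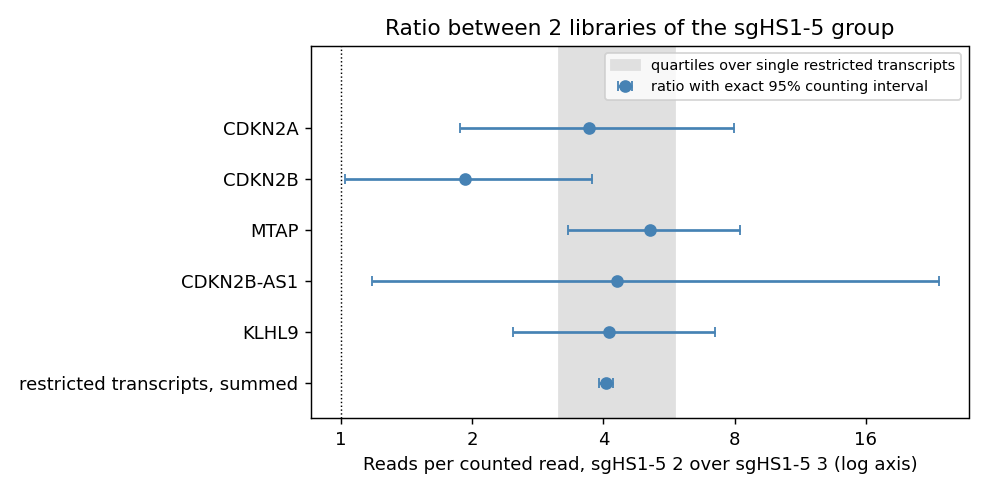
Ratio of reads per counted read between sgHS1-5 2 and sgHS1-5 3 (horizontal log axis), with exact 95% counting intervals, for the 4 genes, KLHL9 and the summed 150 transcripts. The grey band spans the quartiles over the single transcripts (3.16 to 5.85) and the dotted line marks equality; CDKN2B (1.92) lies left of the band.

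Markers of other cell types were read in the same libraries, from lists with 15 monocyte, 6 neutrophil granule, 10 B cell, 11 T and NK cell, 10 fibroblast, 8 epithelial, 4 endothelial and 9 neural genes. Neutrophil granule genes summed to 37.9, 1650.0 and 315.0 CPM in sgHS1-5 1, 2 and 3 and to 6.73 to 22.7 CPM in the other libraries. MPO, myeloperoxidase, had 120, 10362 and 1955 reads in the sgHS1-5 libraries and 17 in the other 11 together, while LCN2, a late granule gene, had 0 in sgHS1-5 2. B cell genes had sums of 21.7, 154.0 and 50.9 CPM, beside 4.31 to 9.65 elsewhere, with 10 of 10 having reads in sgHS1-5. MS4A1, which encodes CD20, had 15, 285 and 71 reads and 0 elsewhere. PAX5, a B cell transcription factor, had 10, 268 and 66 reads and 39 elsewhere. Both lists thus ran in the same library order as MTAP and CDKN2A.

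Monocyte genes had sums of 240.0, 798.0 and 350.0 CPM in sgHS1-5 1, 2 and 3, beside 131.0 to 394.0 elsewhere, so sgHS1-5 2 alone lay above the other groups. All 15 had reads in sgHS1-5 2 and 3. LYZ, the lysozyme gene, made up 520.0 of the 798.0 CPM in sgHS1-5 2, and it was at 35.1 to 203.0 CPM in the other 11 libraries. Among the 3 sgHS1-5 libraries, every gene of the list but CD68 and CD163 was highest in sgHS1-5 2. CSF1R, the macrophage growth factor receptor gene, had 5, 203 and 77 reads in them and 15 elsewhere. CD68 (637, 605 and 744 reads) and CD163 (4, 2 and 5 reads) were lowest in sgHS1-5 2. T and NK cell genes summed to 32.4, 121.0 and 50.9 CPM against 2.02 to 19.8, with 10 of 11 having reads and GNLY, a granule protein gene of cytotoxic cells, at 0 in sgHS1-5. CD4, also a monocyte gene, had 560 reads in sgHS1-5 2. By CPM, CD3E, CD7, CD8A, LCK (4, 38 and 12 reads), TRAT1 and NKG7 (6, 73 and 19 reads) were likewise highest there among the 3 sgHS1-5 libraries. CD3D, a T cell receptor subunit gene (158, 163 and 204 reads), CD3G and CD2 were not. Endothelial genes summed to 2.59, 18.3 and 7.29 CPM against 1.38 to 4.83, with CDH5, which defines the type, at 0 in sgHS1-5. PECAM1, also made by leukocytes, accounted for most of it with 16, 117 and 43 reads.

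The sums of the remaining lists did not follow the 4 genes. Fibroblast genes summed to 22.8, 19.6 and 23.8 CPM against 5.19 to 43.1, with 9 of 10 having reads in sgHS1-5 and LUM at 0. COL1A1, COL1A2 and COL3A1 were lowest in sgHS1-5 2 among the sgHS1-5 libraries, and FAP had its only read in sgHS1-5 3. PDGFRA, PDGFRB, THY1, TWIST1 and DCN were highest in sgHS1-5 2, on at most 21 reads each. There PDGFRA (0.682 CPM), PDGFRB (2.86) and THY1 (0.409) lay above the other 11 libraries (at most 0.535, 1.01 and 0.0871). Epithelial genes summed to 1050.0, 703.0 and 943.0 CPM against 802.0 to 1430.0, with 6 of 8 having reads and CDH1 and KRT5 at 0. Neural genes summed to 20.9, 18.9 and 26.3 CPM against 7.10 to 25, with 3 of 9 having reads and NEFL, NEFM, STMN2, DCX and ELAVL4 at 0 in every library. The part of any of these markers in the level of the 9p21 genes was not tested.

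**Figure D4:**
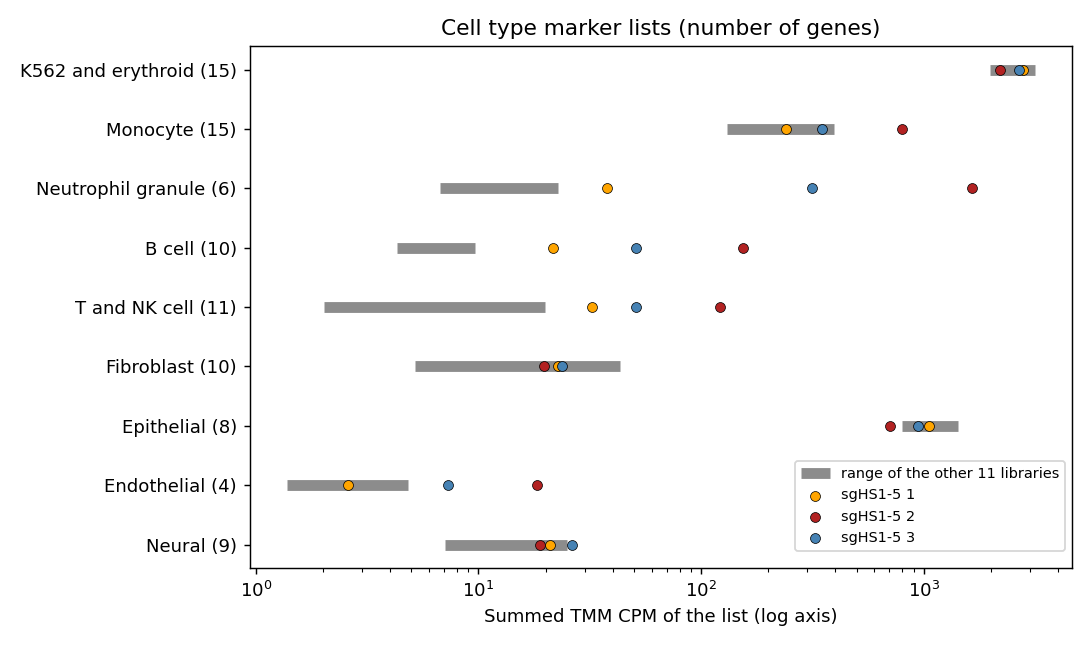
Summed TMM-scaled CPM of each marker list (horizontal log axis; number of genes in brackets). Grey bars give the range of the other 11 libraries and points the sgHS1-5 libraries. The neutrophil granule (37.9, 1650.0 and 315.0 CPM), B cell, T and NK cell lists lie right of the bars in all 3 sgHS1-5 libraries, while the K562 and erythroid and the fibroblast lists stay inside them.

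The genes most like each of the 4 were found by Pearson's r of log2(TMM CPM + 0.5) over the 14 libraries, among 16015 genes with at least 20 reads. The r is a description, because it rests on the sgHS1-5 libraries and all genes share their depth. CDKN2A had an r of 0.984 with CDKN2B and 0.983 with MTAP, and CDKN2B and MTAP had 0.952. CDKN2B-AS1 had 0.635, 0.538 and 0.688 with CDKN2A, CDKN2B and MTAP. Nearest to CDKN2A were MCOLN2, HERC5, SOX11, KCNA3 and RNASE2, an eosinophil ribonuclease gene, all with 0 reads outside sgHS1-5. Nearest to CDKN2B were RIN2, VIT, DIRAS2, DKK2 and OLR1, and nearest to MTAP were IRAK3, TCTEX1D1, KLHL9, MYOCD and OCIAD2 (r of 0.993 to 0.995). HERC5, an interferon-induced ligase gene, had 1, 47 and 11 reads in the sgHS1-5 libraries beside 1, 41 and 11 of CDKN2A, and VIT had 0, 33 and 16 beside 0, 31 and 16 of CDKN2B. CDKN2B-AS1 had weaker neighbours, from TRIM26 at 0.887 to TMX3 at 0.866, and all 5 of them (with OTUB2, DOK3 and NOP9) had reads outside sgHS1-5.

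The other genes of the pathways in which these 4 genes act were counted in the same comparisons. Of 22 further G1 checkpoint genes, 4 were higher and 3 lower in sgHS1-5 than in sgGal4, 11 and 2 against sgHS2, 5 and 3 against sgHBG, and 3 and 4 against WT. The list medians were 0.09, 0.36, 0.12 and 0.05 on the log2 scale, beside 0.02, 0.03, 0.03 and 0.05 over all genes tested. E2F2, an S phase transcription factor, was at 35.9, 37.4 and 35.0 CPM in sgHS1-5 1, 2 and 3 against 22.6 ± 0.596 in sgGal4 (SD, n = 3; log2 0.68 ± 0.10, SE, adjusted p = 0.000246) but 50.7 ± 4.79 in WT. CDKN1A, the p21 kinase inhibitor gene, was at 51.1, 63.1 and 56.6 CPM against 80.9 ± 1.81 in sgGal4 and 27.2 ± 2.04 in WT. CDKN1C, a further kinase inhibitor gene, was lower than in sgGal4 (log2 -1.39 ± 0.21, adjusted p = 0.000330), and TFDP1, the E2F partner, higher (0.67 ± 0.15, adjusted p = 0.00413). CDKN1C was not lower than in sgHS2, sgHBG or WT (log2 0.345, 0.463 and 0.115, edgeR adjusted p 0.225, 0.14 and 0.732). TFDP1 was not called against WT (edgeR adjusted p = 0.192). Without sgHS1-5 2 and 3 the log2 difference of TFDP1 from sgGal4 was 0.30, while E2F2, CDKN1A and CDKN1C had 0.67, -0.66 and -1.19.

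Of 12 genes of the ARF and p53 axis, 3 rose and 3 fell against sgGal4, 3 and 2 against sgHS2, 2 and 1 against sgHBG, and 3 and 1 against WT, with medians of -0.12, 0.03, -0.05 and 0.12 (log2). K562 is known as a p53-null line, and these levels were not taken as a measure of p53 activity. BBC3, the p53 target that encodes PUMA, was at 15.5, 16.8 and 17.3 CPM in sgHS1-5 against 59.2 ± 19.6 in sgGal4 (log2 -1.83 ± 0.20, adjusted p = 2.43e-05) and 73.7 ± 3.90 in WT. MDM2, the ligase that ARF binds, was at 111.0, 108.2 and 109.8 CPM against 73.2 ± 8.27 in sgGal4 (log2 0.58 ± 0.10, adjusted p = 0.000650) and 58.2 ± 6.02 in WT. MDM4, its partner, was also higher than in sgGal4 (log2 0.97 ± 0.13), and ZMAT3 was lower (-0.78 ± 0.17, adjusted p = 0.00302). Without sgHS1-5 2 and 3 the ZMAT3 log2 difference was -0.84. ZMAT3 was not called against sgHS2, sgHBG or WT (edgeR adjusted p 0.819, 0.0553 and 0.877). The levels of BBC3, MDM2 and MDM4 in the 3 sgHS1-5 libraries lay close together, unlike those of CDKN2A.

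A list of 19 genes was drawn up around methionine salvage, the pathway of MTAP. It joined salvage and polyamine genes with MAT2A, MAT2B and AHCY of the methionine cycle and with PRMT5, WDR77, CLNS1A and RIOK1. Of the 19 genes, 5 were higher and 4 lower than in sgGal4, and 6 and 3 against sgHS2. Against sgHBG these counts were 3 and 1, and against WT 7 and 4. MAT2A, which makes S-adenosylmethionine, was at 413.6, 406.3 and 409.4 CPM in sgHS1-5 against 234.2 ± 11.6 in sgGal4 (log2 0.81 ± 0.09, adjusted p = 3.47e-05). APIP and MRI1, the enzymes that follow MTAP, were lower (log2 -0.89 ± 0.17, adjusted p = 0.00160) and higher (0.42 ± 0.12, adjusted p = 0.0130) than in sgGal4. Without sgHS1-5 2 and 3 these log2 differences were -0.92 and 0.50. MRI1 was not called against any other group, and APIP otherwise only against WT (log2 -0.72, edgeR adjusted p = 0.00803). GOT1, a transaminase, was lower than in sgGal4 (log2 -1.13 ± 0.16). The genes of this mixed list thus differed in both directions, with medians of -0.04, 0.04, 0.14 and 0.08 over the list in the 4 comparisons.

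Of 15 Polycomb genes, 1 was higher and 4 lower than in sgGal4, 3 and 4 against sgHS2, 2 and 4 against sgHBG, and 4 and 4 against WT, with medians of -0.11, -0.08, -0.06 and -0.19 (log2). EZH2, the histone methyltransferase, was at 98.6, 108.8 and 96.2 CPM in sgHS1-5, between sgGal4 (65.4 ± 5.52; log2 0.63 ± 0.09, adjusted p = 0.000278) and WT (186.2 ± 5.67; log2 -0.88 ± 0.10). RING1 (log2 -0.67 ± 0.18) and KDM6B (-0.79 ± 0.23) were lower than in sgGal4, with -0.62 and -0.545 without sgHS1-5 2 and 3. RING1 was not called against sgHS2, sgHBG or WT (edgeR adjusted p 0.408, 0.851 and 0.463), while KDM6B was lower than in each of them. The shares of all genes called were given above with the 9p neighbours. A fit without sgHS1-5 2 and 3 leaves a lone sgHS1-5 library, so fewer calls in it need not mean smaller differences. Without sgHS1-5 2 and 3 the counts against sgGal4 were 1 higher and 3 lower for the G1 checkpoint, 2 and 1 for ARF and p53, 1 and 2 for methionine salvage, and 1 and 0 for Polycomb genes.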

How the data were processed

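RNA-seq was performed on 14 K562 libraries, and the members and gene lists below were chosen with earlier results of these data known. The authors deposited raw read counts per gene (24729 genes) and RPKM values (25268 genes). TopHat, Cufflinks, DESeq and hg19 are named, without versions, in the submitters' processing notes. The counting tool and its use of strand are not given in the sources used here. The library kit was TruSeq RNA v2, per the labels' protocols.

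Counts were fitted with edgeR 4.0.16 in R 4.3.3: filterByExpr (minimum count 10, minimum total 15), TMM, all 14 libraries with a mean per group, and the quasi-likelihood F test. This left 14406 genes and 9 residual degrees of freedom (common dispersion 0.0323). Benjamini-Hochberg adjustment ran over all of them, with 0.05 as the threshold for a call. Standard errors follow from the fitted log2 difference and its F value. A fold against 0 reads is a lower bound with 3 reads over the group. Ratios have exact binomial 95% intervals. Depth was 5694448 to 11335831 counted reads per library.

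The alternatives were RLE factors, no count filter, 1 CPM in 3 libraries, DESeq2 1.42.0, only the 2 groups compared, a replicate block, leaving out each library, leaving out sgHS1-5 2 and 3 together, and limma 3.58.1 on log2(RPKM + 0.1 or 1), with and without a filter of over 0.5 RPKM in 2 libraries. Leaving out sgGal4 1 and sgHS2 2 was added after seeing the data. Genes were named by rule: the 4 genes, up to 12 neighbours with at least 10 reads, the 4 genes of each pathway list with the lowest p against sgGal4, and the 5 nearest genes by Pearson's r. MIR31HG, IFNB1, DMRTA1 and ELAVL2, with fewer than 10 reads, and the marker genes fall outside that rule and were chosen after their values were seen. Of the genes that this rule selects, 1 is not reported here. The procedure was tested on simulated data.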

Additional observations from a re-analysis of the deposited data

Results flagged for a closer look

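Genes of the same interval of 9p are listed in the RPKM table alone and so entered no comparison. PTPLAD2, also called HACD4, a gene of fatty acid elongation next to FOCAD, was listed at 0, 2.87 and 0.501 RPKM in sgHS1-5 1, 2 and 3 and at 0 in the other 11 libraries. C9orf53, an RNA gene beside CDKN2A, was listed at 0.151 RPKM in sgHS1-5 2 and at 0 in every other library. Both stood out because they had a signal in sgHS1-5 above that of the control libraries, in values outside the count comparisons. Their depth is unknown, and no test was made.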

How the results depend on the processing

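Of the recomputed log2 differences of the 4 genes, 132 kept their side of the threshold, 33 lost a call, 9 gained one and none changed sign. With a filter of 1 CPM in 3 libraries only MTAP was tested, and 1 gene was called in each of the 4 sgHS1-5 comparisons. DESeq2 also called 1 in each. Limma on log2(RPKM + 1) called 0 against sgHBG and 0 against WT, with 3 of 4 genes at an unadjusted p under 0.05 in each, where edgeR called 3 and 2. With only the 2 groups compared, 1 was called against WT, and against sgGal4, sgHS2 and sgHBG none of the 4 genes passed the filter, so there was no value. The same holds without sgHS1-5 2 and 3. Leaving out 1 library at a time, 1 to 3 genes were called in each sgHS1-5 comparison, and 0 in the others.

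Counts of calls over all genes moved with the setting. With only the 2 groups compared, 2203 genes were called in sgHS1-5 against sgGal4 (5823 otherwise), 2306 in sgHS2 against sgGal4 (4332), 2099 in sgHBG against sgGal4 (3556) and 3502 in sgGal4 against WT (6103). Without sgHS1-5 2 and 3, 2475, 2675, 1372 and 3833 genes were called against sgGal4, sgHS2, sgHBG and WT (5823, 5608, 3628 and 6182 otherwise), with the lone sgHS1-5 library assumed to vary like the other groups. Without sgGal4 1 and sgHS2 2, 6900 were called in sgHS1-5 against sgHBG and 5378 in sgHBG against sgGal4. Leaving out 1 library at a time stayed within 1.5 times for sgHS1-5 against sgGal4 (4424 to 6618 genes) and sgHS2 (4293 to 5114) and for sgHS2 against sgGal4 (3029 to 5474). It gave 2322 to 3422 and 3988 to 5765 genes for sgHS1-5 against sgHBG and WT, 2064 to 4068 for sgHBG against sgGal4 and 3906 to 7348 for sgGal4 against WT. The causes were not tested.

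Replicate numbers are not said to pair the libraries. Correlations of deviations between same-numbered sgHS1-5 and control libraries ran from -0.034 to 0.03, values that do not settle whether they were paired. Between sgHS2 and sgGal4 libraries numbered 1, 2 and 3 they were -0.459, -0.523 and 0.349. With a replicate block, 3 of the 4 genes were called in each sgHS1-5 comparison, CDKN2B now also against WT (adjusted p = 0.0185), and 5380 genes in all against sgGal4. The ratio of the 150 summed transcripts between sgHS1-5 2 and 3 was 4.34 from RPKM. At no more than 41 reads in any library, counting error limits CDKN2A and CDKN2B.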
